A study of Homo sapiens with 6 samples.

Results

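The ZNF genes encode zinc finger proteins, and the 200 most abundant of them in SZ95 sebocytes are described here. Of 27685 genes in the count table, 532 carried a symbol made of ZNF, a number and at most 1 letter. They were ranked by their mean read count over the 6 libraries, and the first 200 were taken. That ranking used the level over both groups and not the difference between them, so the response to PM2.5 could be tested. All 200 passed the filter on low counts, as did 270 of the remaining ZNF genes. Mean counts ran from 765.5 for ZNF680, at rank 200, to 16868.5 for ZNF664, at rank 1. ZNF204P (771.0), ZNF608 (769.3) and ZNF680 lay just inside the limit, and ZNF853 (764.0), ZNF721 (762.2) and ZNF552 (760.0) just outside it.

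SZ95 is an established human sebaceous gland cell line, immortalized with the SV40 large T antigen, and its cells were labelled wild type. The treated group received airborne particulate matter of under 2.5 μm, PM2.5, at 100 μg/mL for 24 h. The control group received the vehicle, 20% ethanol, for the same time. Each group held 3 libraries of polyadenylated RNA, all from the same line. Whether replicates were separate cultures is not stated in the labels, and the p-values thus reflect only how far these libraries differed, a spread that may be technical.

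A C2H2 zinc finger is a short fold held by a zinc ion, and an array of such fingers reads a stretch of DNA. In many ZNF proteins a KRAB box at the N terminus recruits the corepressor TRIM28. TRIM28 in turn brings the histone methyltransferase SETDB1, HP1 proteins and the NuRD deacetylase complex, and much of this repression is aimed at transposable elements. Other ZNF proteins lack the box and act in chromatin complexes, in RNA processing or on the mitotic spindle.

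Library totals were 56460553 to 71080000 counts, with 18253 to 18623 genes detected, and no member fell under 426 counts in any library. Levels are given as CPM, read counts per 1e+06 counts of the library after its total was adjusted by the TMM factor (trimmed mean of M-values). The epithelial markers KRT8, KRT18, EPCAM and CDH1 and the sebaceous markers KRT7, MUC1 and SCD were detected in every library. The sebaceous markers AWAT1 and MC5R reached at most 0.041 CPM. The epithelial marker KRT14 (1.28 to 4.92 CPM) and the sebaceous marker ELOVL3 (2.20 to 4.34 CPM) were low. With PM2.5, KRT8, KRT18, CDH1, KRT7, MUC1 and KRT14 fell in the test given below. SCD, ELOVL3 and the further sebaceous markers PPARG and FADS2 rose. EPCAM, the epithelial marker KRT5 and the sebaceous marker PLIN2 did not pass. Of 20 markers of melanocytes, fibroblasts, immune and endothelial cells, 14 stayed under 1 CPM in every library, among them PTPRC, CD3E, MLANA, TYR, COL1A2, COL3A1 and PECAM1. The 20 summed to 257 to 264 CPM in PM2.5 libraries and 310.4 to 324 CPM in control libraries, most of it from CD68 (100.3 to 111 CPM in PM2.5 libraries, 59.8 to 65.5 in control libraries), CDH5 (77.7 to 87.6 CPM in PM2.5 libraries, 178 to 202 in control libraries) and COL1A1. Their part in the results was not tested. In RNA from whole cultures, fewer cells of a kind and less RNA per cell cannot be told apart.

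Most of the 200 genes did not pass the test, and those that did moved by small amounts. With PM2.5, 27 members rose and 49 fell at an adjusted p under 0.05 in edgeR's quasi-likelihood test, while 124 did not pass. These were 13.5%, 24.5% and, for both directions, 38.0% of the members, against 21.7%, 22.0% and 43.6% of all 16049 genes tested. Precision rises with counts, and among the 9293 tested genes whose mean count lay within the members' range 20.6% rose and 26.3% fell, 46.9% in all. The share of members that rose was thus below both backgrounds, and the share that fell lay between them, a description that was not tested. The genes in the count range had a median mean count of 2967, against 1417 for the members, and a median SE of 0.063 against 0.072. They are thus not matched to the members in depth, here or where that set is used below. The median log2 fold change was −0.03 over the members, 0.00 over all tested genes and −0.02 over those in the members' count range.

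Only 8 members changed by more than 1.5-fold at that adjusted p, 4.0% of them, against 13.1% of all tested genes and 6.3% of those in the count range. Of these 8, 2 rose and 6 fell, each out of 200 members. Among all tested genes 7.4% rose and 5.65% fell by that much, and among those in the count range 2.29% and 4.0%. Both member shares lay below both backgrounds, which was not tested. The other 68 changed members moved by less. In 41 of 200 members every PM2.5 library lay above every control library, and in 66 of 200 every PM2.5 library lay below. The same held for 28.1% and 28.1% of all tested genes and 27.1% and 32.7% of those in the count range. The first member share was below both backgrounds, and the second was near that of the count range. Summed over the members, the level was 6788, 6845 and 6813 CPM in PM2.5 libraries and 7038, 7197 and 7134 CPM in control libraries, a difference of −4.32%. Those sums did not overlap, at an exact two-sided permutation p of 0.10, the smallest that 3 against 3 libraries allow. As a share of the library total, without TMM factors, the members took 0.697%, 0.71% and 0.696% of counts in PM2.5 libraries and 0.685%, 0.705% and 0.687% in control libraries, so on that scale the groups overlapped and the PM2.5 mean was 1.21% higher (exact two-sided permutation p = 0.30). That comparison was added after seeing the data.

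The balance between rises and falls depended on the scaling. With library size alone 50 members rose and 28 fell, and with upper-quartile scaling 41 rose and 42 fell, while the median of all genes moved by 0.08 and 0.04 on the log2 scale. The member median was then 0.05 and 0.01, below the all-gene medians of 0.09 and 0.04 as in the fit with TMM. Over all tested genes 4770 rose and 2546 fell with library size alone, and 4008 and 3036 with upper-quartile scaling. With TMM these were 3476 and 3523, so the balance of all genes shifted too. Leaving out PM2.5 replicate 1 left 48 members called, 28 of them lower, and leaving out PM2.5 replicate 2 left 29 lower. In these fits 24.0% and 25.5% of the members were called, against 33.0% and 33.7% of all tested genes. With all libraries these shares were 38.0% and 43.6%. Under all 15 alternative settings of the fit 41 of the 76 changed members were called in the same direction, 16 higher and 25 lower.

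**Figure D1:**
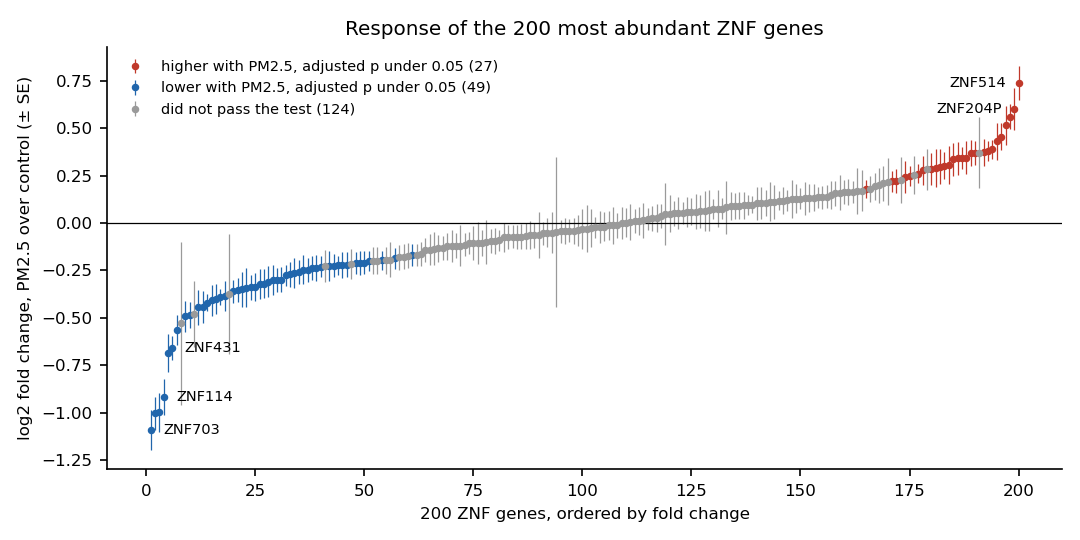
Log2 fold change of PM2.5 over control (± SE) for the 200 most abundant ZNF genes, ordered from the lowest to the highest, with genes that rose in red, fell in blue and did not pass in grey. Changed genes lie mostly within 0.58 of 0, and with scaling by library size alone the balance turned to 50 rises and 28 falls.

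The largest fall with PM2.5 was in ZNF703, a transcriptional corepressor known as an oncogene of luminal breast cancer. It had 14.9, 12.1 and 15.6 CPM in PM2.5 libraries, against 27.7, 29.8 and 32.9 CPM in control libraries. All PM2.5 libraries lay below all control libraries, and the level was 2.13-fold lower (log2 fold change −1.09 ± 0.11 SE, adjusted p = 0.000223).

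ZNF608 and ZNF365 fell about as far. ZNF608, a large protein related to ZNF609, had 7.54, 8.07 and 8.45 CPM in PM2.5 libraries, against 17.8, 15.3 and 15.2 CPM in control libraries, a 2.01-fold lower level (log2 fold change −1.004 ± 0.09 SE, adjusted p = 0.000149). ZNF365, a centrosomal protein with a role in genome stability, had 12.9, 11.7 and 15.4 CPM in PM2.5 libraries, against 24.8, 27.5 and 27.3 CPM in control libraries. Its log2 fold change was −0.999 ± 0.10 SE (adjusted p = 0.000268). In neither gene did the groups overlap, and neither encodes a KRAB box.

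Among KRAB genes the largest fall was in ZNF114, on chromosome 19, with 23.8, 23.0 and 28.9 CPM in PM2.5 libraries, against 50.8, 44.4 and 47.8 CPM in control libraries (log2 fold change −0.92 ± 0.09 SE, adjusted p = 0.000275). ZNF431, a KRAB gene with 12 fingers on the same chromosome, had 40.8, 42.1 and 42.3 CPM in PM2.5 libraries, against 64.9, 71.3 and 61.5 CPM in control libraries (log2 fold change −0.66 ± 0.06 SE, adjusted p = 0.00021). Both were clearly separated between groups. ZNF488, whose mouse counterpart acts in oligodendrocyte differentiation, had 17.4, 16.6 and 19.9 CPM in PM2.5 libraries, against 27.03, 26.9 and 32.7 CPM in control libraries (log2 fold change −0.69 ± 0.10 SE, adjusted p = 0.0012).

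The falls of the other 4 genes among the 10 largest were under 1.5-fold. ZNF326, a subunit of the DBIRD complex that couples RNA polymerase II to splicing, had 36.0, 38.4 and 35.9 CPM in PM2.5 libraries, against 57.5, 57.7 and 47.7 CPM in control libraries (log2 fold change −0.56 ± 0.08 SE, adjusted p = 0.00108). The KRAB genes ZNF3 and ZNF107, both on chromosome 7, had log2 fold changes of −0.49 ± 0.08 SE and −0.48 ± 0.07 SE. ZNF750 is a factor of epidermal differentiation that acts downstream of p63. It had 14.3, 14.9 and 15.1 CPM in PM2.5 libraries, against 17.2, 21.8 and 21.2 CPM in control libraries (log2 fold change −0.44 ± 0.09 SE, adjusted p = 0.00652). Each of these 10 genes was called lower under all 15 alternative settings.

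The largest rise with PM2.5 was in ZNF514, a KRAB gene with 7 fingers on chromosome 2. Its level was 36.9, 37.0 and 31.1 CPM in PM2.5 libraries, against 20.2, 23.0 and 19.8 CPM in control libraries, 1.67-fold higher (log2 fold change 0.74 ± 0.09 SE, adjusted p = 0.00054). The groups were well apart. ZNF204P, a pseudogene on chromosome 6, had 14.9, 15.2 and 13.4 CPM in PM2.5 libraries, against 10.2, 10.6 and 7.996 CPM in control libraries (log2 fold change 0.60 ± 0.11 SE, adjusted p = 0.0035).

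ZNF330, a nucleolar protein, had 28.6, 29.2 and 26.9 CPM in PM2.5 libraries, against 19.6, 19.9 and 17.9 CPM in control libraries (log2 fold change 0.56 ± 0.06 SE, adjusted p = 0.000407). ZNF275, on the X chromosome, had 21.4, 20.7 and 23.0 CPM in PM2.5 libraries, against 13.6, 14.1 and 17.8 CPM in control libraries (log2 fold change 0.52 ± 0.10 SE, adjusted p = 0.00544). In both genes the lowest PM2.5 library exceeded the highest control library. ZNF236, which holds 30 fingers, had 45.5, 44.6 and 38.4 CPM in PM2.5 libraries, against 31.9, 31.3 and 30.4 CPM in control libraries (log2 fold change 0.46 ± 0.07 SE, adjusted p = 0.00169).

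The next 5 rises were of 1.29-fold to 1.35-fold. They were in the KRAB genes ZNF354C (log2 fold change 0.43 ± 0.10 SE), ZNF496 (0.39 ± 0.05), ZNF589 (0.38 ± 0.05) and ZNF274 (0.37 ± 0.06), and in ZNF397 (0.37 ± 0.07). ZNF496, ZNF397 and ZNF274 all carry a SCAN domain, through which zinc finger proteins pair with each other. ZNF496, which in the mouse binds the histone methyltransferase NSD1, was the most abundant of them, with 72.9, 77.2 and 75.6 CPM in PM2.5 libraries, against 56.8, 55.3 and 60.4 CPM in control libraries. Each of the 10 genes with the largest rises was called higher under all 15 alternative settings.

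**Figure D2:**
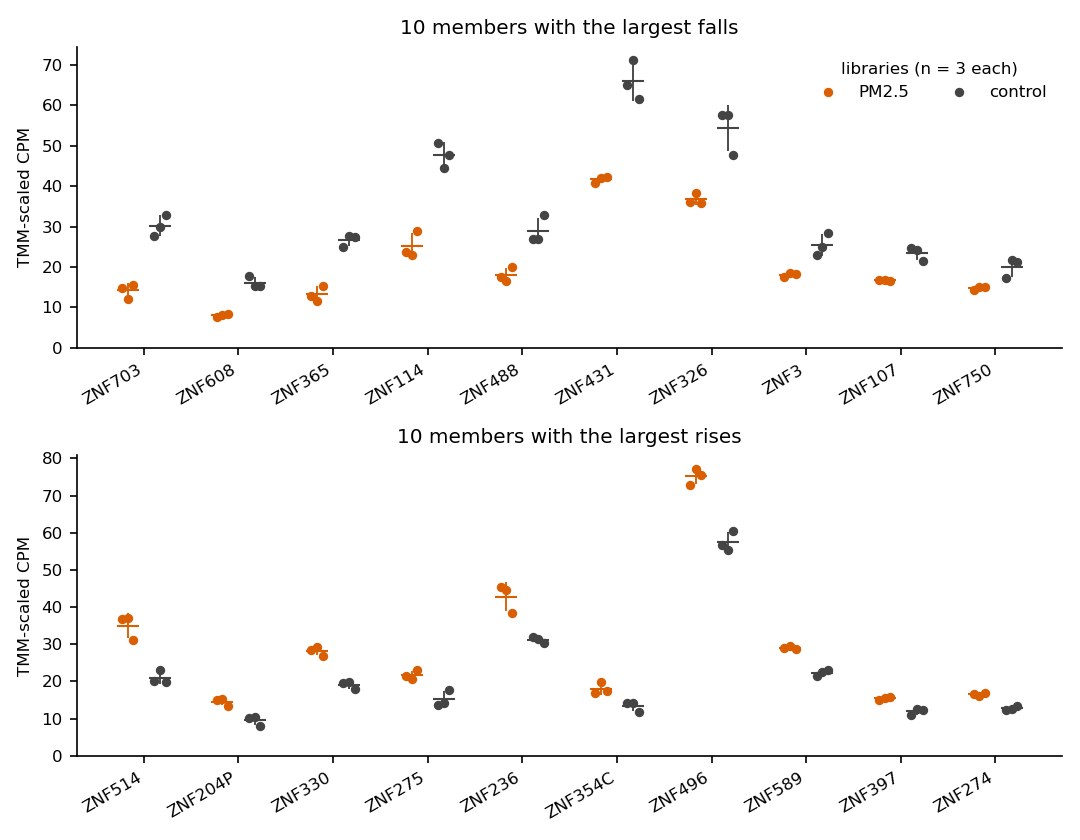
TMM-scaled CPM in each library for the 10 members with the largest falls (upper row) and the 10 with the largest rises (lower row), with PM2.5 libraries left of control libraries and bars for the mean and SD (n = 3 each). In none of the 20 genes do the groups overlap.

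Promoter sequence was examined beside these changes, since airborne particles carry polycyclic hydrocarbons that bind the aryl hydrocarbon receptor (AHR), whose response element has the core GCGTG. RefSeq promoters of 300 bases (250 before the start of transcription and 50 after it, build GRCh38.p14) were matched for 164 of the 200 members. The core, read as GCGTG or as its reverse complement CACGC, occurred in 14 of 25 promoters of members that rose, in 20 of 39 of members that fell and in 57 of 100 of members that did not pass. Over all 27305 promoters in the RefSeq set the share was 36.3%, and over those of tested genes 49.3%. These shares were not tested against each other, and a match says nothing on binding. The core was present in 4 of 9 promoters of the 10 largest rises and in 3 of 6 of the 10 largest falls.

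To show promoters with and without the core, the sequences given are, in each direction, that of the gene with the largest change that had an entry and that of the gene with the largest change whose promoter held the core. Matches to the core are in capitals, and each sequence runs 5′ to 3′ on the strand of its gene. ZNF514 (chr2:95159536-95159835, minus strand) and ZNF275 (chrX:153333903-153334202, plus strand) rose. ZNF608 (chr5:124748775-124749074, minus strand) and ZNF431 (chr19:21141790-21142089, plus strand) fell. The ZNF514 promoter is built largely of a GC-rich repeat and holds no match, the ZNF275 promoter holds 2, the ZNF608 promoter holds none and the ZNF431 promoter holds 1.
ZNF514: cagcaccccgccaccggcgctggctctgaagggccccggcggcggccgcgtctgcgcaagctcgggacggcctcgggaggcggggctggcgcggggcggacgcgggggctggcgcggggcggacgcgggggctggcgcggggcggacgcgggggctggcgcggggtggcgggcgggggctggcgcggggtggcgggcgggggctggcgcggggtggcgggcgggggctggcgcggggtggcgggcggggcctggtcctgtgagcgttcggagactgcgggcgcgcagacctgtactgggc
ZNF275: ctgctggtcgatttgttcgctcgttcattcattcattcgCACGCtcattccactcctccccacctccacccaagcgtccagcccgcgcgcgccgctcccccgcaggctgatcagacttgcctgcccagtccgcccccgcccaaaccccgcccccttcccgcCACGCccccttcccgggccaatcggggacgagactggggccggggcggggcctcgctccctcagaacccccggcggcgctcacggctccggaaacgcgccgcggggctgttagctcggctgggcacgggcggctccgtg
ZNF608: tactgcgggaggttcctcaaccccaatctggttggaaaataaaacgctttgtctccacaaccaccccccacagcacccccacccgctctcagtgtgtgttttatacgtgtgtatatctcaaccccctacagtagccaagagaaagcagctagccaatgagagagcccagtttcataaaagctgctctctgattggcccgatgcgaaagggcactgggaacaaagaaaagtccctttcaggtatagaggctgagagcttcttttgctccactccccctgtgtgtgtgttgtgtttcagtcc
ZNF431: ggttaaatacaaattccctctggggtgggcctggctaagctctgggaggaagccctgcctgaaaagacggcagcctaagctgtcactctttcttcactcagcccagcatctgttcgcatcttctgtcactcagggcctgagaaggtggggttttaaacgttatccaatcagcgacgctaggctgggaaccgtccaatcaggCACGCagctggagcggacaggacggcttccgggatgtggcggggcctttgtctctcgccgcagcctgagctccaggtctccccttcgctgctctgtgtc

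The 6 members with the highest counts all lack a KRAB box, and 4 of them fell slightly. ZNF664 had 225, 219 and 233 CPM in PM2.5 libraries, against 308, 307 and 293 CPM in control libraries, a 1.34-fold lower level (log2 fold change −0.42 ± 0.04 SE, adjusted p = 0.000315). ZNF207 (BuGZ), a spindle protein that binds the checkpoint protein BUB3, had 151.4, 158 and 154 CPM in PM2.5 libraries, against 198.1, 199 and 209.7 CPM in control libraries (log2 fold change −0.39 ± 0.04 SE, adjusted p = 0.000396). Both genes were called lower under all 15 alternative settings.

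ZNF592 and ZNF217 fell by less. ZNF592 had a log2 fold change of −0.21 ± 0.06 SE (adjusted p = 0.0177) and ZNF217, a partner of the LSD1-CoREST demethylase complex, one of −0.23 ± 0.06 SE (adjusted p = 0.0116). Neither passed when scaled by library size alone or without PM2.5 replicate 1 or PM2.5 replicate 2, where the adjusted p rose to as much as 0.0736 for ZNF592 and 0.0732 for ZNF217. ZNF609 had 164, 163 and 165 CPM in PM2.5 libraries, against 148, 149 and 168 CPM in control libraries, so the groups overlapped (log2 fold change 0.08 ± 0.06 SE, adjusted p = 0.30). Per kilobase of the GENCODE transcript, the mean level was highest in ZNF207 (67.7 CPM per kb in PM2.5 libraries, 88.7 in control libraries), followed by ZNF664 (44.2 and 59.2) and ZNF106 (38.9 and 30.1).

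The direction of change was set beside abundance as a description. Of the 50 most abundant members 7 rose and 17 fell, and of the 50 least abundant 10 rose and 6 fell. Scaled by library size alone, the counts were 15 and 7 among the 50 most abundant, turning the balance, and 13 and 3 among the 50 least abundant. In that fit 4770 of all tested genes rose and 2546 fell. Without PM2.5 replicate 1 the counts of members were 6 and 8, and 5 and 2. Without PM2.5 replicate 2 they were 6 and 9, and 6 and 3. In those fits 33.0% and 33.7% of all tested genes were called. Leaving out a control library gave 13 to 17 falls among the most abundant. The 270 tested ZNF genes below rank 200 had 49 rises (18.1%) and 31 falls (11.5%), with a median log2 fold change of 0.07. Across the 200 members the Spearman correlation of mean count with log2 fold change was −0.14. These points share their libraries and are not independent replicates.

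The members were then divided by protein class. In translated GENCODE 29 transcripts, 99 members held a KRAB box, 96 had a coding transcript without one and 5 had no coding transcript. Of KRAB members 11 rose and 20 fell (31.3% changed), and of members without the box 15 rose and 29 fell (45.8% changed). These are read against 43.6% of all tested genes and 46.9% of those in the count range. By direction, 11.1% of KRAB members rose and 20.2% fell, and 15.6% and 30.2% of members without the box. Among all tested genes 21.7% rose and 22.0% fell, and among those in the count range 20.6% and 26.3%. The median size of the log2 fold change was 0.14 in KRAB members and 0.20 in members without the box. The KRAB members were also less abundant, with a median mean count of 1226.5 against 2255.7, and their median SE was 0.08 against 0.07. The part of depth in this difference was not tested. Without PM2.5 replicate 1, 11 KRAB members fell, and 9 members without the box rose and 17 fell. Without PM2.5 replicate 2, 10 KRAB members and 19 members without the box fell. In these fits 33.0% and 33.7% of all tested genes were called. With library size alone the balance turned to 24 rises and 11 falls among KRAB members and to 25 rises and 17 falls among members without the box. Over all tested genes 4770 rose and 2546 fell in that fit.

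Summed, KRAB members took 2186, 2252 and 2178 CPM in PM2.5 libraries and 2241, 2302 and 2221 CPM in control libraries. These sums overlapped (difference −2.18%, exact two-sided permutation p = 0.30). Members without the box took 4506, 4496 and 4541 CPM in PM2.5 libraries and 4702, 4796 and 4827 CPM in control libraries, without overlap (difference −5.46%, exact two-sided permutation p = 0.10, the smallest possible). Without TMM factors neither difference was negative: relative to control, the share of the library total differed by 3.47% for KRAB members (p = 0.30) and 0.00237% for members without the box (p = 1.0 in the same exact permutation test), and both pairs of groups overlapped.

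Chromosome 19 holds long clusters of ZNF genes, and 60 members lie there, 44 of them with a KRAB box. Of these 60, 5 rose and 8 fell (21.7% changed), while of the 140 members on other chromosomes 22 rose and 41 fell (45.0%), read against 43.6% of all tested genes and 46.9% of those in the count range. Scaled by library size alone, the balance turned to 12 rises and 4 falls on chromosome 19, with 38 rises and 24 falls elsewhere. Of KRAB members, 8 of 44 changed on chromosome 19 and 23 of 55 elsewhere, but these counts were 5 and 16 without PM2.5 replicate 1 and 4 and 14 without PM2.5 replicate 2. The median mean count was 1159 for members on chromosome 19 and 1650 for the others. Over the 15 alternative settings the share of changed members was 13.3% to 26.7% on chromosome 19 and 28.6% to 49.3% elsewhere. The difference between chromosome 19 and the others was not tested.

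Finger number was the last feature of the proteins examined. Counted by the spacing of the cysteine and histidine residues in 195 proteins, finger numbers ran from 0 to 33. Of the 49 members with 0 to 4 recognized fingers 6 rose and 19 fell, of the 91 with 5 to 12 fingers 14 rose and 24 fell, and of the 55 with 13 or more fingers 6 rose and 6 fell. Beside 43.6% of all tested genes and 46.9% of those in the count range, these are 51.0%, 41.8% and 21.8% of the 3 classes. Median mean counts in these classes were 2279, 1390 and 1268.5, so the classes had the same order in abundance as in the share that changed, and the part of depth was not tested. Without PM2.5 replicate 1 the classes had 19, 22 and 6 changed members, and without PM2.5 replicate 2 they had 19, 25 and 6. Scaled by library size alone, the classes had 13 rises and 13 falls, 24 rises and 12 falls, and 12 rises and 3 falls.

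**Figure D3:**
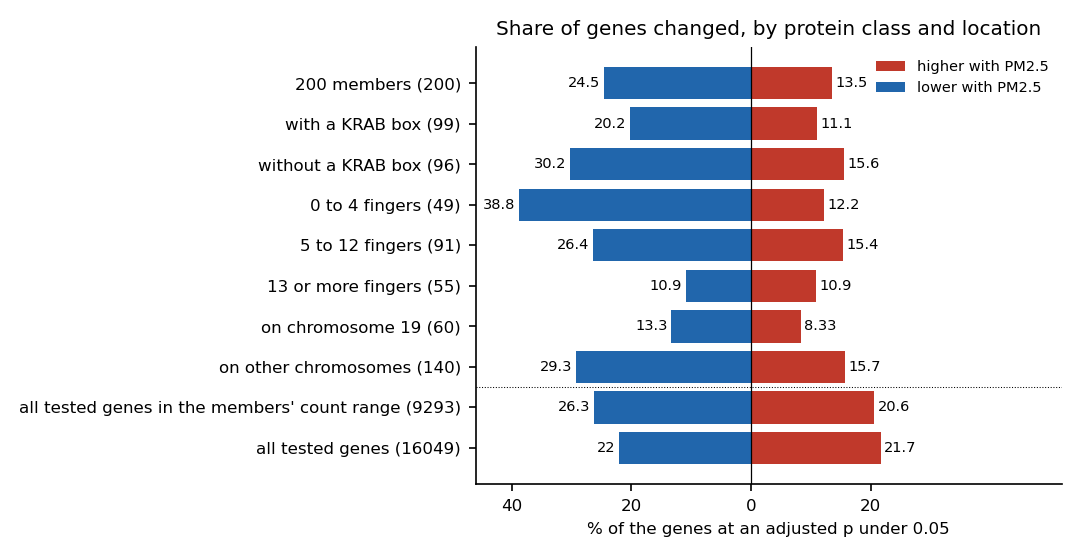
Share of genes that rose (red, right) and fell (blue, left) with PM2.5 at an adjusted p under 0.05, for the 200 members, for members by KRAB box, finger number and chromosome, and for all tested genes (below the dotted line), with the number of genes in parentheses. The shortest bars are those of members on chromosome 19 and of members with 13 or more fingers; with scaling by library size alone, rises outnumbered falls among the members.

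By role, of 13 members known as partners of chromatin complexes, 3 rose and 4 fell. These 7 are 53.8% of the list, where 43.6% of all tested genes and 46.9% of those in the count range changed. ZNF274 rose, a KRAB protein that directs SETDB1 to the 3′ ends of ZNF genes, with 16.5, 16.2 and 16.8 CPM in PM2.5 libraries, against 12.3, 12.5 and 13.5 CPM in control libraries (log2 fold change 0.37 ± 0.06 SE, adjusted p = 0.00261). ZNF532, which sits with ZNF592 and ZNF687 in a complex with ZMYND8, also rose, with 76.6, 78.9 and 74.9 CPM in PM2.5 libraries, against 62.1, 63.0 and 68.9 CPM in control libraries (log2 fold change 0.25 ± 0.05 SE, adjusted p = 0.00785). The 3 proteins of that complex did not move as one, since ZNF592 fell and ZNF687 had a log2 fold change of −0.02 that did not pass. ZNF827, which brings NuRD to telomeres, also fell (−0.20 ± 0.05 SE on the log2 scale, adjusted p = 0.0176). With library size alone 4 of the 13 rose and 0 fell, without PM2.5 replicate 1 the counts were 3 and 1, and without PM2.5 replicate 2 they were 3 and 0.

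Of 12 members that act on RNA, ribosomes, the spindle or protein turnover, 2 rose and 5 fell, 58.3% against the same backgrounds of 43.6% and 46.9%. Beside ZNF326 and ZNF207, ZNF638 fell, a nuclear RNA-associated protein that also silences unintegrated retroviral DNA. It had 74.2, 72.0 and 68.3 CPM in PM2.5 libraries, against 95.9, 94.8 and 80.1 CPM in control libraries (log2 fold change −0.34 ± 0.08 SE, adjusted p = 0.00839). ZNF622, which serves in the maturation of the large ribosomal subunit, fell by 0.20 on the log2 scale (SE 0.05, adjusted p = 0.0121). ZNF451, a SUMO ligase, rose, with 64.2, 63.2 and 55.8 CPM in PM2.5 libraries, against 51.9, 50.3 and 42.5 CPM in control libraries (log2 fold change 0.34 ± 0.09 SE, adjusted p = 0.0151). ZNF330 was the second of the 2 rises. Scaled by library size alone, 3 of the 12 rose and 3 fell, and without PM2.5 replicate 1 the counts were 1 and 4.

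The 15 members with described DNA targets or tissue roles had 0 rises and 7 falls, with a median log2 fold change of −0.20. This list, like the other role lists, was made with earlier results of these data known. The 46.7% that changed is close to the 46.9% of tested genes in the count range, of which 26.3% fell. The falls included ZNF703, ZNF750 and ZNF365, the last given above as a centrosomal protein. ZNF263, a KRAB and SCAN protein, had 22.6, 23.1 and 22.6 CPM in PM2.5 libraries, against 26.5, 29.2 and 30.6 CPM in control libraries (log2 fold change −0.34 ± 0.07 SE, adjusted p = 0.00454). ZNF335, part of a histone H3 lysine methyltransferase complex needed for brain growth, had 43.4, 42.8 and 46.3 CPM in PM2.5 libraries, against 53.4, 51.3 and 55.6 CPM in control libraries (log2 fold change −0.28 ± 0.05 SE, adjusted p = 0.00492). In 10 of the 15 every PM2.5 library lay below every control library and in 0 above, where 28.1% of all tested genes and 32.7% of those in the count range lay below. Scaled by library size alone or by the upper quartile, the counts were 0 rises and 6 falls.

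TRIM28, the proteins it brings and other silencing factors were examined last among the roles. They are listed here as the corepressor machinery, which thus also holds factors of DNA methylation and of the HUSH complex. Of these 28 genes 4 rose and 12 fell, with a median log2 fold change of −0.12. Among all tested genes 21.7% rose and 22.0% fell, but these 28 genes are more abundant than the members, with a median mean count of 6515. TRIM28 itself, which binds the box, had 280.0, 267 and 284 CPM in PM2.5 libraries, against 298, 281 and 314 CPM in control libraries, and did not pass (log2 fold change −0.10 ± 0.05 SE, adjusted p = 0.153). The largest falls were in MTA2 and HDAC2 of NuRD, in UHRF1, which guides DNA methylation, and in PPHLN1 of the HUSH silencing complex, with log2 fold changes of −0.42 ± 0.05 SE, −0.32 ± 0.06, −0.40 ± 0.06 and −0.35 ± 0.05. CBX5 (HP1 alpha) rose, with 335, 345 and 316 CPM in PM2.5 libraries, against 272, 277 and 246 CPM in control libraries (log2 fold change 0.33 ± 0.06 SE, adjusted p = 0.00304), and so did MTA1 (0.16 ± 0.04, adjusted p = 0.0176). SETDB1 (0.15 ± 0.05, adjusted p = 0.0476) and ATF7IP (0.19 ± 0.07, adjusted p = 0.0498) also rose, both close to the threshold. Of the other HP1 genes, CBX3 fell (−0.30 ± 0.09, adjusted p = 0.0255) and CBX1 did not pass (0.0025 ± 0.044, adjusted p = 0.968). SETDB1, ATF7IP, CBX3 and CBX1 were named after their values were seen, and their calls were not followed singly under the alternative settings. Scaled by library size alone, 6 of the 28 rose and 5 fell. The count of rises was 2 without PM2.5 replicate 1, PM2.5 replicate 2 or control replicate 2 and 1 without control replicate 1, and 8 genes fell without PM2.5 replicate 2.

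Neighbouring genes were compared next. Along the RefSeq assembly 29 pairs of members were adjacent among protein-coding genes, and 16 of the 29 pairs had log2 fold changes of the same sign. Both genes changed in 6 pairs, in the same direction in 3 and in opposite directions in 3. Over all members 38.0% changed and 54.5% had a negative log2 fold change, where 43.6% and 49.4% of all tested genes did. The 29 pairs drew on 51 genes, so some genes are in more than 1 pair. These pair counts were not tested and are not read as a result about neighbours. ZNF516 and ZNF236 on chromosome 18 both rose, by 0.18 ± 0.05 SE and 0.46 ± 0.07 SE on the log2 scale. ZNF212 and ZNF783, in a cluster on chromosome 7, both fell, with log2 fold changes of −0.39 ± 0.08 SE and −0.25 ± 0.08 SE. ZNF783 passed under only 7 of the 15 alternative settings, and not with the replicate number as a block (adjusted p = 0.0507). ZNF398 in the same cluster also fell (−0.36 ± 0.06). ZNF516, ZNF212, ZNF783 and ZNF398 were chosen after their values were seen. ZNF680 rose beside ZNF107, which fell, though ZNF680 passed under only 10 of the 15 settings.

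Reads of near-identical genes may be shared between them, and how the counting treated such reads is not given in the sources used here. ZNF417 and ZNF587, 98.1% identical in protein over 575 residues, had log2 fold changes of −0.20 ± 0.07 SE and −0.07 ± 0.07 SE, and neither passed. ZNF33A and ZNF33B (92.8% identical) had 0.10 ± 0.09 and −0.19 ± 0.09 and did not pass either, nor did ZNF780A and ZNF780B (83.4%). ZNF561 and ZNF562 (83.9%) both fell, by 0.24 and 0.17 on the log2 scale (adjusted p = 0.0261 and 0.0459), but ZNF562 passed under only 4 of the 15 alternative settings.

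ZNF431 and ZNF714, 86.1% identical and adjacent on chromosome 19, differed in their values. ZNF431 fell, as given above, whereas ZNF714 had 26.2, 28.0 and 27.4 CPM in PM2.5 libraries, against 28.1, 30.9 and 26.7 CPM in control libraries. Its groups overlapped (log2 fold change −0.07 ± 0.07 SE, adjusted p = 0.45). The difference between these neighbours was not tested.

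Replicates were close in most members, with a median ratio of the highest to the lowest library of 1.09 among PM2.5 libraries and 1.15 among control libraries. In 4 members the PM2.5 libraries and in 2 the control libraries spread by more than 1.5-fold. The genes given next, apart from ZNF106, were chosen after their values were seen. ZNF436, a KRAB gene, had 24.7, 5.78 and 24.3 CPM in PM2.5 libraries, against 25.7, 25.8 and 26.9 CPM in control libraries. PM2.5 replicate 2 held 0.236 of the mean of the other 2 PM2.5 libraries, and without it the log2 fold change was −0.08 ± 0.06 SE in place of −0.53 ± 0.43 SE.

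ZNF337 and ZNF468, also KRAB genes, showed the same kind of gap in other libraries. ZNF337 had 9.19, 36.3 and 30.8 CPM in PM2.5 libraries, against 25.8, 25.7 and 27.6 CPM in control libraries. With all libraries its log2 fold change was −0.05 ± 0.40 SE (adjusted p = 0.935), and without PM2.5 replicate 1 it was 0.36 ± 0.08 SE and passed (adjusted p = 0.0177). ZNF468 had 25.6, 26.8 and 9.57 CPM in PM2.5 libraries, against 26.98, 29.8 and 23.9 CPM in control libraries, and without PM2.5 replicate 3 its log2 fold change was −0.03 ± 0.10 SE in place of −0.37 ± 0.32 SE. The low library was a different one in each of these 3 genes.

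ZNF384, a factor that binds AT-rich DNA, had 47.9, 30.2 and 50.9 CPM in PM2.5 libraries, against 55.5, 58.6 and 65.5 CPM in control libraries. It missed the threshold with all libraries (log2 fold change −0.48 ± 0.17 SE, adjusted p = 0.0557) and passed without PM2.5 replicate 2 (−0.26 ± 0.07 SE, adjusted p = 0.0372). It also passed with the replicate number as a block (adjusted p = 0.0309), without PM2.5 replicate 3 and in limma-voom, and did not in the remaining 11 of 15 settings. ZNF106, an RNA-binding protein and the second most abundant member, had 286, 284 and 288 CPM in PM2.5 libraries, against 148, 275 and 239 CPM in control libraries. Control replicate 1 held 0.575 of the mean of the other 2 control libraries, and without it the log2 fold change was 0.15 ± 0.07 SE (adjusted p = 0.128) in place of 0.37 ± 0.19 SE (adjusted p = 0.146). It passed, at an adjusted p of 0.0433, only without control replicate 2.

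**Figure D4:**
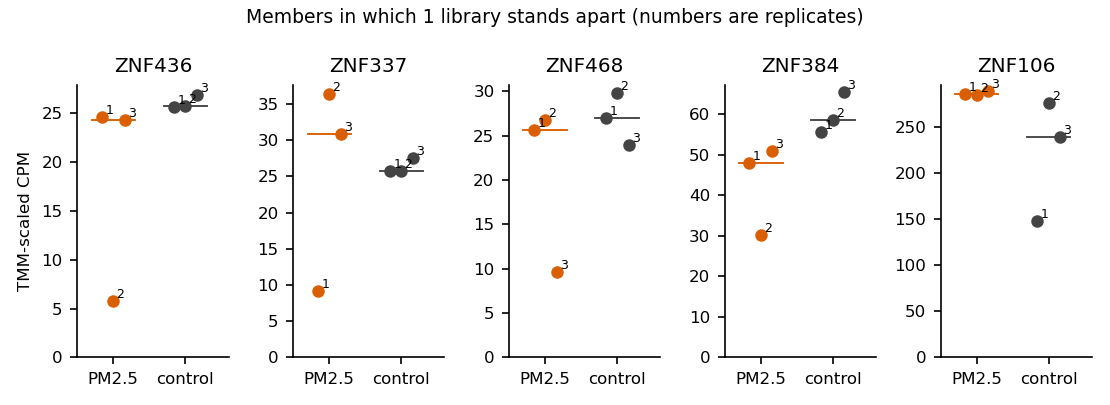
TMM-scaled CPM in each library of 5 members in which 1 library stands apart, with PM2.5 left of control, replicate numbers beside the points and a line at the median of each group. In ZNF436, ZNF337 and ZNF468 the low point is PM2.5 replicate 2, PM2.5 replicate 1 and PM2.5 replicate 3, and in ZNF106 it is control replicate 1.

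Across the 195 members with a coding transcript, the Spearman correlation of log2 fold change with GC content was −0.12, with transcript length 0.07 and with finger number 0.17. Over 13966 tested genes with a transcript the values for GC content and length were −0.05 and −0.00. The median GC content was 45.4% in these members and 49.9% in tested genes. These correlations run across genes of the same 6 libraries and are given as a description.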

How the data were processed

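SZ95 sebocytes treated with PM2.5 or vehicle were sequenced as 3 libraries per group from TruSeq stranded mRNA kits. The authors deposited 1 table of raw read counts per gene, whole numbers with NCBI Gene IDs and symbols. The submitters' processing notes name build hg19, HISAT2 2.0.5 and StringTie 1.3.3b, besides Trimmomatic 0.32 and DESeq2; how reads were counted, and whether by strand, is not given in the sources used here.

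Counts were analysed in R 4.3.3 with edgeR 4.0.16: filterByExpr (minimum count 10, minimum total 15) kept 16049 genes, scaling was by TMM, and glmQLFit and glmQLFTest gave two-sided p-values, adjusted by Benjamini and Hochberg over all tested genes. The SE is the absolute log2 fold change divided by the square root of F. CPM carry no prior count. The members and gene lists were chosen with earlier results of these data known. Alternatives were DESeq2 1.42.0, limma-voom 3.58.1, edgeR's older fit, 3 scalings (library size alone also for summed levels, added after seeing the data), 2 filters, the replicate number as a block, leaving out each library, and 3 choices of members. On simulated data of this depth (15742 genes) edgeR found 63 of 66 genes that had been given 2-fold changes, 48 of 67 given 1.5-fold ones and 13 of 67 given 1.25-fold ones, with 9 false calls in 15542.

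Genes named in the text were the 10 largest rises and 10 largest falls among members with an adjusted p under 0.05 and no overlap of groups, the 6 most abundant, 3 on each side of rank 200, up to 6 of each gene list and 5 pairs of similar proteins; others are marked where they appear. RefSeq proteins were not used here; KRAB boxes were found in translated GENCODE 29 transcripts with a HMMER 3.4 profile (E-value under 0.001), fingers by residue spacing, and similar proteins with BLAST+ 2.17.0. Chromosomes and promoters come from RefSeq on GRCh38.p14, not the build of the counts.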

Additional observations from a re-analysis of the deposited data

How the results depend on the processing

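With scaling by library size alone, 50 members rose and 28 fell (24 and 11 with a KRAB box, 25 and 17 without), the member median was 0.0522 and 5 corepressor genes fell; ZNF587 (0.0108), ZNF714 (0.0129), ZNF780A (0.0550) and ZNF337 (0.0373) turned positive without passing. With upper-quartile scaling 41 members rose, 19 of them with a KRAB box, and the median was 0.00765, and ZNF780A was at 0.0107. With a mean count of at least 50 as the filter, 17 KRAB members rose and the median was −0.0119, and edgeR's older fit left 2 rises among corepressor genes. Choosing members by control counts shared 194 of 200 genes and gave a median of −0.0443, and all 470 tested ZNF genes gave 156 changed, 76 higher and 80 lower, with a median of 0.0248. With library size alone 4770 of all tested genes rose and 2546 fell. The causes were not tested.

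Leaving out 1 library at a time gave 48 to 79 changed members, 20 to 30 higher and 28 to 49 lower, with a median of −0.04 to −0.02. That was 24.0% to 39.5% of the members, against 33.0% to 42.0% of all tested genes. KRAB members had 8 to 15 rises and 10 to 19 falls, members without the box 9 to 17 and 17 to 29, and corepressor genes 1 to 3 and 8 to 13. ZNF780A lay between −0.115 and 0.0729, positive without PM2.5 replicate 1 (0.0227) or control replicate 1, and ZNF337 between −0.383 and 0.36, positive without PM2.5 replicate 1.

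Of 162 counts and medians recomputed, 131 moved by no more than 1.5-fold or the spread between replicates; of 915 fold changes of 61 named genes, 851 kept their direction and side of the threshold, 44 no longer passed, 12 newly passed and 8 changed sign. Replicate numbers are shared only as numbers: deviations of same-numbered libraries correlated at −0.00, 0.08 and 0.09, and PM2.5 replicate 2 and control replicate 2 and both libraries numbered 3 correlated best with their own number while the first pair did not. With the replicate number as a block 83 members changed, 31 higher and 52 lower.

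At this depth and number of libraries small changes may be missed, and simulated libraries gave few calls at the smallest fold. The simulation changed far fewer genes than were called in the data, and drew them also from genes of lower counts. Its adjusted p was thus harder to pass, and its shares do not measure how often changes in members were missed. Of the 76 changed members 68 moved by under 1.5-fold, and members that did not pass cannot be called unchanged.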
